A study of Mus musculus with 29 samples.

Results

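The Cdkn1b-null mouse ovary was followed from embryonic day 18.5 (E18.5), before birth, to postnatal day 8 (PND8) by bulk RNA sequencing, and its change in gene expression is described across all genes. Cdkn1b encodes p27Kip1, an inhibitor of cyclin-dependent kinases that restrains entry into the cell cycle. Its libraries are the samples labelled p27null with the genotype Cdkn1b -/- at these ages, 4 libraries at E18.5 (replicates 1, 2, 3 and 4) and 3 libraries at PND8 (replicates 1, 3 and 4), which makes 7 of the 29 libraries in the series. The whole series holds 2 genotypes, wild type (WT) and Cdkn1b -/-, at 4 ages. The 8 WT libraries of E18.5 and PND8, 4 at each age, are used below where the change in the null ovary is set against the same interval in WT. All ovaries were dissociated with papain before RNA was extracted and no sort is named, so the libraries mix the cell types of the ovary. The strain, the construction of the null allele and any pooling of animals are not given in the sources used here. Nothing in the labels says that the replicates were separate animals, so p-values measure the spread between these samples, which may be technical.

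This interval spans the formation of the follicle, the unit in which 1 oocyte is enclosed by somatic granulosa cells. In the fetal mouse ovary germ cells enter meiosis and pass through its prophase in clusters called cysts, and around birth the cysts break down while pregranulosa cells surround single oocytes to form primordial follicles. In the days after birth the first wave of follicles starts to grow: the oocyte enlarges, lays down the zona pellucida, a coat of glycoproteins, and stores maternal transcripts, the granulosa cells become cuboidal and divide, and theca cells that make androgens gather outside the basal lamina. p27 is known to hold primordial follicles dormant, and ovaries without it are known to activate them early.

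Values are given as CPM, the counts of a gene divided by the scaled total of its library, in the order of the replicates, 1 to 4 at E18.5 and then 1, 3 and 4 at PND8. Library totals ran from 17630619 to 22769235 counts at E18.5 and from 34518180 to 48213126 at PND8, so a low gene is measured with less counting error at PND8. A count of 3 in a library, taken as the lowest level its depth can show, was on average 0.144 CPM at E18.5 and 0.083 CPM at PND8. The first principal component held 89.8% of the variance and separated the ages. Within E18.5, replicates 1 and 3 carried more red cell RNA: the summed level of the erythroid genes was 24461, 1903, 13442 and 1759 CPM. Replicate 1 also had the lowest summed level of mitochondrially encoded genes (3396 CPM, against 10477 to 17068 CPM in the other 3) and the lowest level of several oocyte genes named below. Where the call of a gene named below was lost without replicates 1 and 3, the value without them is given. Of the defining ovarian markers, Foxl2 and Amhr2 of granulosa cells, Ddx4 of germ cells and Nr2f2 of stroma were measured in all 7 libraries, with the lowest at 32.9 CPM for Foxl2, 279 for Amhr2, 5.50 for Ddx4 and 79.0 for Nr2f2.

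Cdkn1b itself (chr6:134920401-134925513 in GENCODE M21, build GRCm38) was still counted in the null libraries. It measured 9.53, 16.1, 11.6 and 14.3 CPM at E18.5 and 77.3, 68.7 and 64.0 CPM at PND8 (log2 fold change 2.45, SE 0.16, edgeR adjusted p 4.6e-07). On a scale shared by the 15 libraries of both genotypes, the null libraries held 9.33 to 15.8 CPM at E18.5 against 96.9 to 124 in WT, and 64.7 to 77.9 CPM at PND8 against 134 to 170.0 in WT. Each null library lay below each WT library of the same age, and the residual transcript of the null rose more than the WT transcript did (difference of the log2 fold changes 2.01, SE 0.20, edgeR adjusted p 0.00079). A count over a whole gene can include reads from any part that a null allele leaves in place, and which part the reads came from was not tested.

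From E18.5 to PND8, 13351 of the 17245 genes tested passed an adjusted p of 0.05 in edgeR's quasi-likelihood test with Benjamini-Hochberg adjustment, which is 77.4%. The split was even, with 6709 genes higher at PND8 (38.9%) and 6642 lower (38.5%), and the median log2 fold change over all genes was -0.01. A change of at least 2-fold was met by 8979 of them (52.1%), 4859 higher (28.2%) and 4120 lower (23.9%). The 4 E18.5 libraries and the 3 PND8 libraries did not overlap in CPM for 13395 genes (77.7%). These shares are the background against which each gene list is read. The low-count filter kept a gene that was counted in enough libraries, which those of a single age could supply. A gene near 0 at either age thus entered the test through the other age alone, and the direction of any call was fixed. Under scaling by library totals alone the median gene moved to -0.22 and 44.1% of the called genes were higher, against 50.3% here.

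A large share of this change was a step between the fetal and the postnatal libraries of the whole series. Over all 8 groups, 6320 of the 17245 genes (36.6%) had no overlap between the 15 fetal libraries (E13.5 and E18.5, both genotypes) and the 14 postnatal libraries (PND8 and 12 weeks), and such genes were 47.2% of those called and 58.1% of those called with at least 2-fold. Ppp6r1, a regulatory subunit of protein phosphatase 6, is a case: on the scale of all 29 libraries, its null median was 2.9 and 3.6 CPM at the fetal ages E13.5 and E18.5, and 165.2 and 154.8 CPM at PND8 and 12 weeks. Ubb, a ubiquitin gene, went the other way, with 7028, 6365, 1053 and 951 CPM. The log2 fold change also rose with transcript length (Spearman's rho across genes 0.31, median -0.62 in the lowest length decile of genes and 1.28 in the highest) and with GC content (rho 0.19), which describes genes and not replicates. Age cannot be told apart from whatever else separates the fetal from the postnatal libraries. Values from a fit with an offset for GC content and length stand beside many of the lists and genes below.

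**Figure D1:**
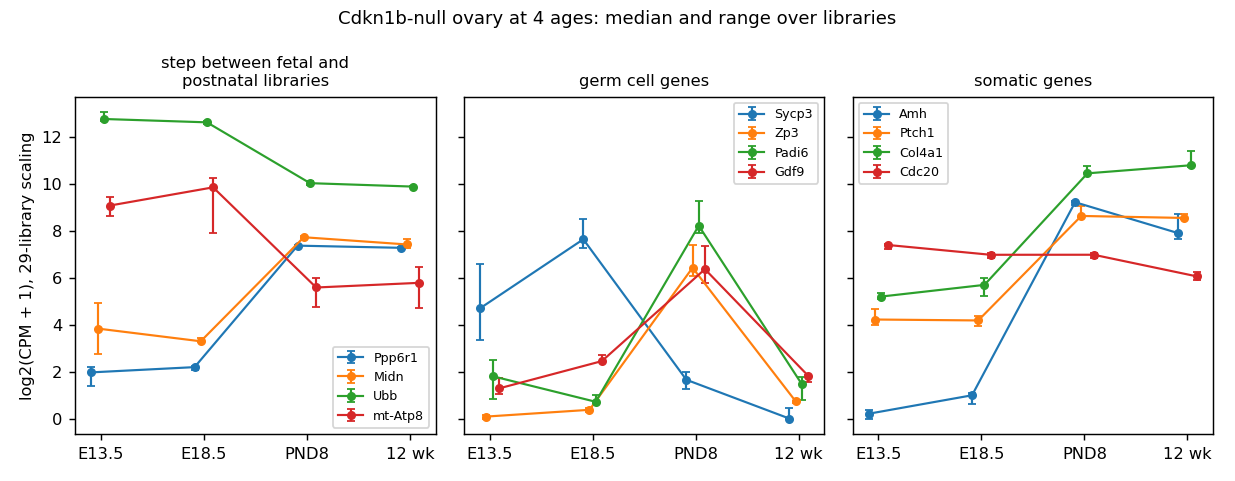
Levels in the Cdkn1b-null ovary at the 4 ages (E13.5 and E18.5 fetal, then PND8 and 12 weeks), as log2(CPM + 1) with CPM scaled over all 29 libraries. Points are medians and bars the lowest and highest library. Ppp6r1 and Midn step up and Ubb and mt-Atp8 step down between the fetal and postnatal ages (left), the oocyte genes Zp3, Padi6 and Gdf9 peak at PND8 while Sycp3 peaks at E18.5 (middle), and Amh, Ptch1 and Col4a1 are high at both postnatal ages (right).

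**Figure D2:**
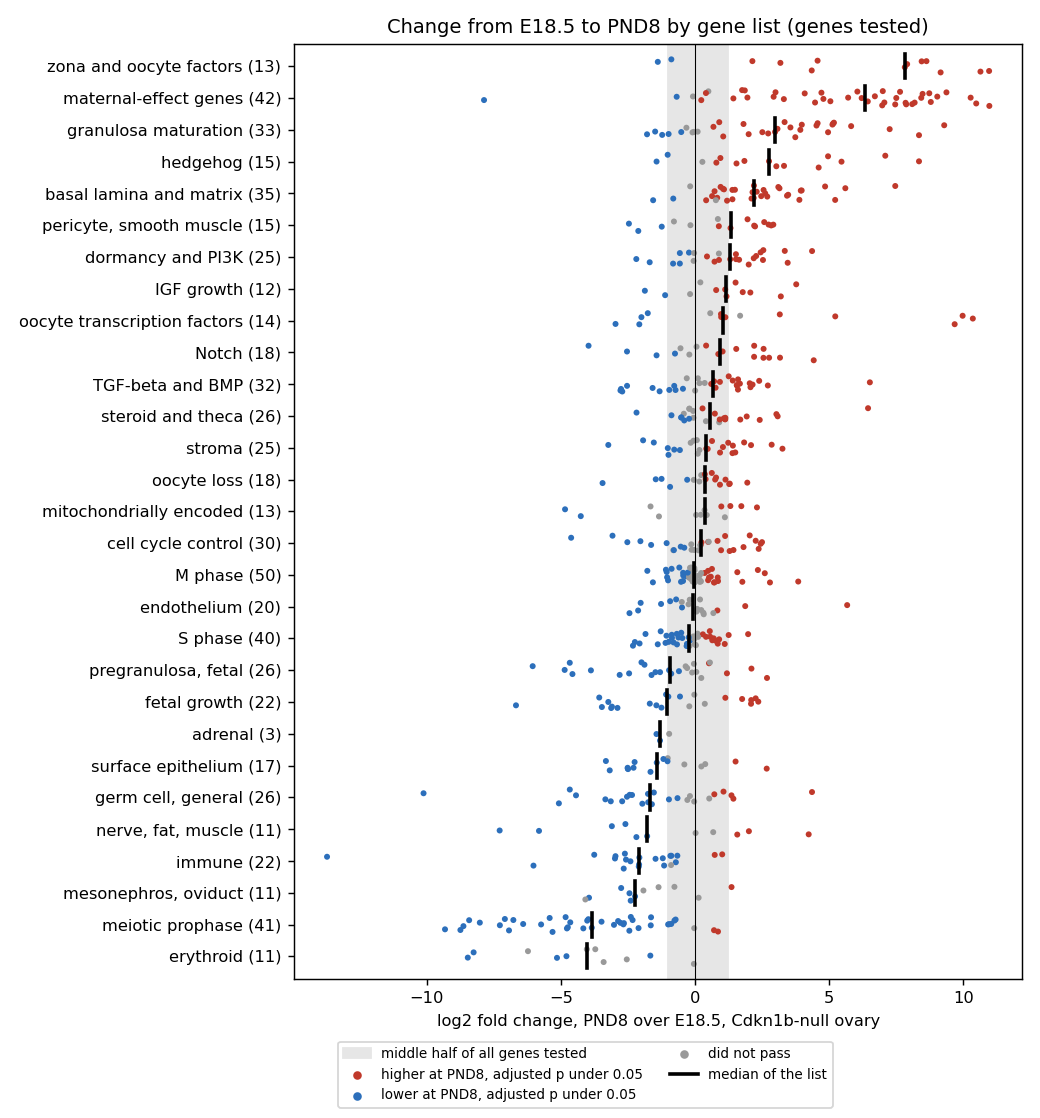
Log2 fold change from E18.5 to PND8 in the Cdkn1b-null ovary for each tested gene of 29 lists, with the number tested in brackets. Red points were called higher and blue points lower (edgeR adjusted p under 0.05), grey points were not called, black bars are list medians and the grey band is the interquartile range of all genes tested. The zona and maternal-effect lists lie far right of the band, at medians of 7.82 and 6.33 (4.35 and 5.16 with members at 0 at E18.5 set to their bound), and the meiotic list lies far left, at -3.85.

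Among the 8 largest rises with at least 10 CPM and no overlap, 4 were oocyte genes. Eif4e1b, an oocyte form of the cap-binding translation factor, was at 0 in the 4 E18.5 libraries and at 13.5, 41.5 and 19.8 CPM at PND8, at least 174-fold higher against the floor of 3 counts per library. Astl encodes ovastacin, the oocyte protease that later cleaves the zona, and its CPM went from 0, 0, 0.0481 and 0 to 14.9, 39.8 and 23.6. With 1 count in all at E18.5, its ratio was 2121, with a 95% counting interval of 380 to 83811. Fbxw24, an F-box gene (11.9, 40.1 and 22.4 CPM at PND8, ratio 1999, interval 358 to 78969), and Nlrp14 (103, 251 and 128 CPM, log2 fold change 9.37) made up the others. The remaining 4 are features whose counting is uncertain, because near-identical copies or host transcripts share their reads: the histone gene Hist1h2ao, the Mir6236 locus, the pseudogene Cbx3-ps6 and Zbed6, which lies in an intron of another gene. Each was at 0 in the 4 E18.5 libraries.

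The largest falls with at least 10 CPM and no overlap included genes of meiotic germ cells. Dmrtc2 ran 7.91, 13.5, 10.4 and 9.85 CPM at E18.5 and 0 in the 3 PND8 libraries, at least 126-fold lower. Tex101, which encodes a germ cell surface protein, had 34.6, 27.9, 23.4 and 14.3 CPM at E18.5 and 2 counts in all at PND8 (ratio 1413, 95% counting interval 391 to 11672). Hormad1, Tex12 and Spata22 of meiotic prophase and Taf7l, a germ cell form of a general transcription factor subunit, made up 4 more. Hemgn, a red cell gene, was also among the largest falls and was high in E18.5 replicates 1 and 3, at 17.3, 0.537, 83.2 and 1.73 CPM at E18.5 and 0.179, 0.0289 and 0 CPM at PND8. For Hemgn the call was lost without E18.5 replicate 1 or PND8 replicate 1, 3 or 4 (adjusted p 0.057 to 0.097).

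Meiotic genes fell together. Of the 41 meiotic prophase genes tested, 38 were lower at PND8 and 2 higher, with a median log2 fold change of -3.85, against 38.5% lower and a median of -0.01 over all genes. Sycp3, a core protein of the synaptonemal complex that holds paired chromosomes together, measured 183, 369, 221 and 160.2 CPM at E18.5 and 2.08, 2.92 and 1.36 CPM at PND8 (log2 fold change -6.77, SE 0.45, edgeR adjusted p 4.9e-06). The groups were far apart, and replicate 2 was the highest library at E18.5. Its partner Sycp1 went from 93.0, 208, 125 and 106 to 1.28, 2.17 and 1.26 CPM. Hormad1, which marks unpaired chromosome axes, fell from 48.6, 68.8, 43.8 and 35.1 to 0.0448, 0.145 and 0.0316 CPM (log2 fold change -9.32, SE 0.42, edgeR adjusted p 7.0e-08). Spo11, the enzyme that makes the DNA breaks of recombination, had 12.6, 11.0, 9.09 and 6.09 CPM at E18.5 and 2 counts in all at PND8 (ratio 545, 95% counting interval 150.4 to 4508). Dmc1, the recombinase that pairs strands at these breaks, fell less, from 5.41, 6.23, 4.33 and 4.40 to 2.24, 1.27 and 1.36 CPM (log2 fold change -1.64, SE 0.29, edgeR adjusted p 0.00051), and it did not pass with the GC and length offset (log2 fold change -0.59, adjusted p 0.086). Rec8, the meiotic cohesin, kept a low level of 4.01, 3.30 and 3.19 CPM at PND8 after 31.8, 23.8, 29.5 and 28.9 CPM at E18.5 (log2 fold change -3.02, SE 0.15, edgeR adjusted p 6.4e-08). Stra8, which starts meiosis, was too low to test, at 0.767, 0.107, 0 and 0.0990 CPM at E18.5 and 0.157, 0 and 0 CPM at PND8. In a bulk sample fewer cells of a type and less RNA per cell cannot be told apart.

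Other members of the list did not fall. Brca2, a DNA repair gene of dividing cells, rose from 49.0, 75.2, 59.999 and 55.3 to 98.7, 103 and 91.5 CPM (log2 fold change 0.71, SE 0.13, edgeR adjusted p 0.00064), a call that the GC and length offset ended (log2 fold change -0.16, adjusted p 0.18). Ythdc2, an RNA helicase needed for entry into meiosis, rose from 11.9, 15.3, 11.7 and 10.8 to 22.2, 21.7 and 23.7 CPM (log2 fold change 0.86, SE 0.14, edgeR adjusted p 0.00024). Mlh3 did not pass, at 33.1, 37.95, 35.4 and 30.9 and 31.9, 33.4 and 35.6 CPM.

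General germ cell genes went both ways. Of 26 tested, 17 were lower and 5 higher, with a median of -1.68 (with the offset 15 lower, 3 higher and -1.50). Dazl, an RNA-binding protein of fetal germ cells, fell from 61.0, 136, 93.7 and 77.7 to 2.48, 6.43 and 3.95 CPM (log2 fold change -4.44, SE 0.43, edgeR adjusted p 4.8e-05). Ddx4, the vasa helicase found in germ cells at all stages, fell from 24.4, 40.0, 34.0 and 25.2 to 5.91, 12.4 and 5.50 CPM (log2 fold change -1.96, SE 0.32, edgeR adjusted p 0.00048). Neither gene overlapped between the ages, and PND8 replicate 3 was the highest PND8 library for both. Pou5f1 (Oct4), which is switched on again in growing oocytes, rose from 0.646, 0.322, 0.288 and 0.445 to 5.44, 13.6 and 7.84 CPM (log2 fold change 4.36, SE 0.40, edgeR adjusted p 4.1e-06). The Tudor domain genes of the piRNA pathway went both ways: Tdrd9 fell (log2 -1.53) and Tdrd5 and Tdrd7 rose (1.06 and 1.36). Dppa3, a maternal chromatin factor, overlapped between the ages, at 4.04, 72.2, 65.6 and 34.0 and 23.3, 58.8 and 33.3 CPM, with E18.5 replicate 1 far below the other 3.

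Oocyte transcription factors went both ways. Of 14 tested, 8 were higher and 4 lower. The 4 that fell were Figla, Sohlh1, Sohlh2 and Lhx8, which are known to act in early oocytes. Figla, which is required to form primordial follicles, measured 14.4, 42.4, 29.3 and 24.0 CPM at E18.5 and 1.90, 5.85 and 2.88 CPM at PND8 (log2 fold change -2.96, SE 0.50, edgeR adjusted p 0.00086). Sohlh1 ran 12.0, 34.3, 27.3 and 22.6 and then 5.62, 7.41 and 4.02 CPM (log2 fold change -2.08, SE 0.36, edgeR adjusted p 0.00067), and its relative Sohlh2 fell by 2.00 on the log2 scale. Lhx8 had 5.93, 37.3, 21.2 and 17.4 CPM at E18.5 and 4.05, 9.47 and 4.55 CPM at PND8 (log2 fold change -1.76, SE 0.62, edgeR adjusted p 0.034). Its groups overlapped, since E18.5 replicate 1 lay below PND8 replicate 3, and the call was lost without E18.5 replicate 2, 3 or 4 or PND8 replicate 1 or 4 (adjusted p 0.050 to 0.12). Lhx8 also did not pass with the GC and length offset (log2 fold change -1.36, edgeR adjusted p 0.086). Nobox, a homeobox factor that stays on in growing oocytes, overlapped between the ages and did not pass, at 2.91, 22.1, 18.1 and 12.0 and 17.3, 28.9 and 14.6 CPM (log2 fold change 0.57, adjusted p 0.42). Among the rises, the homeobox genes Obox1, Obox2 and Obox5 were at 0 in the 4 E18.5 libraries and at 1.28, 5.56 and 4.21, at 1.95, 6.28 and 9.42 and at 2.22, 5.65 and 5.69 CPM at PND8, at least 26-, 41- and 31-fold higher. The Obox genes are near-identical copies, so the split of reads among them is uncertain. Tbpl2, the oocyte form of the TATA-binding protein, went from 3 counts in all to 0.873, 2.69 and 0.917 CPM (ratio 40.9, 95% counting interval 13.7 to 200.2). Foxo3, the factor that keeps primordial oocytes dormant, rose from 66.4, 87.2, 90.7 and 91.5 to 174, 167 and 154 CPM (log2 fold change 0.98, SE 0.11, edgeR adjusted p 2.3e-05). With the offset for GC and length Foxo3 was called lower instead (log2 fold change -0.26, edgeR adjusted p 0.025).

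The upstream sequences of 4 oocyte genes that rose are shown because Figla and Nobox, whose levels are given above, are known to bind the E-box CANNTG and the homeobox sites TAATTG and TAATTA. They are the 250 bases before the RefSeq start on GRCm38.p6, read 5′ to 3′ on the gene's strand, in genes with 1 start, and capitals mark each match on either strand. Zp3 lies on the plus strand (chr5:135979855-135980104), and Bmp15 (chrX:6320725-6320974), Padi6 (chr4:140742644-140742893) and Ooep (chr9:78378589-78378838) lie on the minus strand.
Zp3: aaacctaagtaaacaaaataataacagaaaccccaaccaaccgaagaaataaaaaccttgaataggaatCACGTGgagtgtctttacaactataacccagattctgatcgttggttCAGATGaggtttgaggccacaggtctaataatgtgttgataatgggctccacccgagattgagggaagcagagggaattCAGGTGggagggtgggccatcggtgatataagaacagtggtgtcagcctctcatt
Bmp15: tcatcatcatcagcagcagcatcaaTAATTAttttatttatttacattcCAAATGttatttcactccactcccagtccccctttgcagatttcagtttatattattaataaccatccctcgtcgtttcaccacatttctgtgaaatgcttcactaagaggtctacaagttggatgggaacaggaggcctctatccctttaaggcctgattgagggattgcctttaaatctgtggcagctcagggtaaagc
Padi6: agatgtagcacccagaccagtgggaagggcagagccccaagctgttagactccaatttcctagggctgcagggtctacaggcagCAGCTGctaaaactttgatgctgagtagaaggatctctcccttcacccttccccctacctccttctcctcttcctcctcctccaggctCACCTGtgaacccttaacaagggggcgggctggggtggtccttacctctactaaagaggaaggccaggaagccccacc
Ooep: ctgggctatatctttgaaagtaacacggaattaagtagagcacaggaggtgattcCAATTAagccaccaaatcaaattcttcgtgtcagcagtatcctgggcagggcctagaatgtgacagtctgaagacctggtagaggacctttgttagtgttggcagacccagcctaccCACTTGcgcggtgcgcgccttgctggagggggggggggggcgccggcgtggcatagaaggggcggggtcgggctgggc
Zp3 held 3 E-box matches, at -181, -134 and -55 from the start, and no homeobox match. Bmp15 held TAATTA at -225 and an E-box match at -201, Padi6 held E-box matches at -166 and -78, and Ooep held a TAATTG match at -195 and an E-box match at -78. Such matches are common: CANNTG stood in 66.2% of the same windows of all 32851 RefSeq starts, in 9 of 12 starts (75%) of the zona list and in 43 of 55 (78.2%) of the maternal list. TAATTG or TAATTA stood in 11.3% of all windows, in 1 of 12 (8.33%) of the zona list and in 9 of 55 (16.4%) of the maternal list. Such motifs can overlap one another, although the matches in the 4 sequences printed do not, and a match is not a bound site. The list shares cover only the 10 of 15 matched zona genes and 37 of 46 matched maternal genes that had a start. Zp1, Zp2 and Gdf9 had none, and some genes had several starts.

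Zona and secreted oocyte factors rose from near the floor. Of 13 tested, 11 were higher and 2 lower, with a median log2 fold change of 7.82, or 4.35 with the 3 members at 0 at E18.5 set to the bound that the floor gives. Those 3, and other members near 0 at E18.5, passed the low-count filter through PND8 alone and could only be called higher. Zp1, Zp2 and Zp3 encode the glycoproteins of the zona. Zp1 measured 0.0807, 0, 0.0962 and 0.198 CPM at E18.5 and 32.6, 89.2 and 48.0 CPM at PND8 (log2 fold change 9.16, SE 0.57, edgeR adjusted p 1.8e-06). Zp2 measured 0.121, 1.18, 1.54 and 0.841 and 127, 303 and 175 CPM (log2 fold change 7.82, SE 0.57, edgeR adjusted p 1.5e-05). Zp3, whose upstream sequence is printed above, measured 0.202, 0.268, 0.385 and 0.346 and 64.3, 167 and 84.2 CPM (log2 fold change 8.45, SE 0.48, edgeR adjusted p 1.3e-06). In all 3 the PND8 libraries kept 1 order, replicate 3 highest and replicate 1 lowest, and no E18.5 library exceeded 1.54 CPM. Gdf9, a growth factor that the oocyte sends to granulosa cells, started higher, at 4.40, 5.69, 4.42 and 4.80 CPM, and reached 52.0, 163 and 80.5 CPM (log2 fold change 4.35, SE 0.40, edgeR adjusted p 3.4e-05). Bmp15, its partner, went from 0.525, 0.537, 0.625 and 0.0990 to 4.56, 17.5 and 10.2 CPM (log2 fold change 4.57, SE 0.57, edgeR adjusted p 5.9e-05). Oosp1, an oocyte-secreted protein gene, was at 0 in the 4 E18.5 libraries and at 4.05, 12.2 and 10.6 CPM at PND8, at least 62-fold higher. The 2 that fell are surface proteins that somatic or blood cells also make: Cd9 fell by 1.39 on the log2 scale, and the receptor Kit went from 69.1, 108, 106 and 98.4 to 49.7, 64.9 and 40.5 CPM (log2 fold change -0.88, SE 0.19, edgeR adjusted p 0.0026). Cpa3, a protease of mast cells, which also carry Kit, fell from 521, 676, 493 and 704 to 13.6, 4.43 and 9.45 CPM, and its part in the fall of Kit was not tested.

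Maternal-effect genes, whose products act in the egg and early embryo, followed the zona genes. Of 42 tested, 38 were higher and 2 lower, with a median of 6.33, or 5.16 with the 6 members at 0 at E18.5 set to their bound. These 6, and other members near 0 at E18.5, likewise entered the test through PND8 alone and could only be called higher. Padi6, a component of the cytoplasmic lattices of the oocyte, measured 0.727, 0.537, 1.0096 and 0.594 CPM at E18.5 and 234, 613 and 294 CPM at PND8 (log2 fold change 9.03, SE 0.48, edgeR adjusted p 1.3e-06). Nlrp5 (Mater), of the subcortical maternal complex, went from 0.0404, 2.25, 3.32 and 0.742 to 83.2, 143 and 80.3 CPM (log2 fold change 6.05, SE 0.74, edgeR adjusted p 0.00035). Ooep, of the same complex, was already at 5.45, 7.95, 4.90 and 5.44 CPM at E18.5 and reached 29.9, 69.1 and 43.3 CPM (log2 fold change 3.00, SE 0.29, edgeR adjusted p 1.4e-05). Zar1, which guards stored maternal transcripts, went from 0.121, 0.107, 0.144 and 0.0990 to 12.0, 34.8 and 20.2 CPM (log2 fold change 7.503, SE 0.46, edgeR adjusted p 2.8e-07), and Npm2, a nucleoplasmin that packs chromatin in the egg, rose by 7.87 on the log2 scale. For all 5 genes PND8 replicate 3 was the highest library. Several NLR family genes (Nlrp2, Nlrp4a and Nlrp9b) were at 0 in the 4 E18.5 libraries and at least 39-, 63- and 45-fold higher at PND8, with near-identical copies in the family. Ccnb3, a cyclin of meiotic germ cells, was the large exception and fell from 40.3, 55.8, 42.1 and 36.0 to 0.0671, 0.289 and 0.221 CPM (log2 fold change -7.87, SE 0.33, edgeR adjusted p 2.9e-08).

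Few oocyte genes made the step between fetal and postnatal libraries. Of the zona list 2 of 13 genes, and of the maternal list 2 of 42, separated all fetal from all postnatal libraries, against 36.6% of all genes tested. Zp3 in the null had medians of 0.0613, 0.296, 85.5 and 0.669 CPM at the 4 ages and Padi6 had 2.499, 0.643, 299 and 1.77, so both were high at PND8 alone. A gene that is high at PND8 alone cannot make this step. The low share therefore does not separate age from other differences between the E18.5 and PND8 libraries. Of the meiotic list, 20 of 41 genes made the step.

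**Figure D3:**
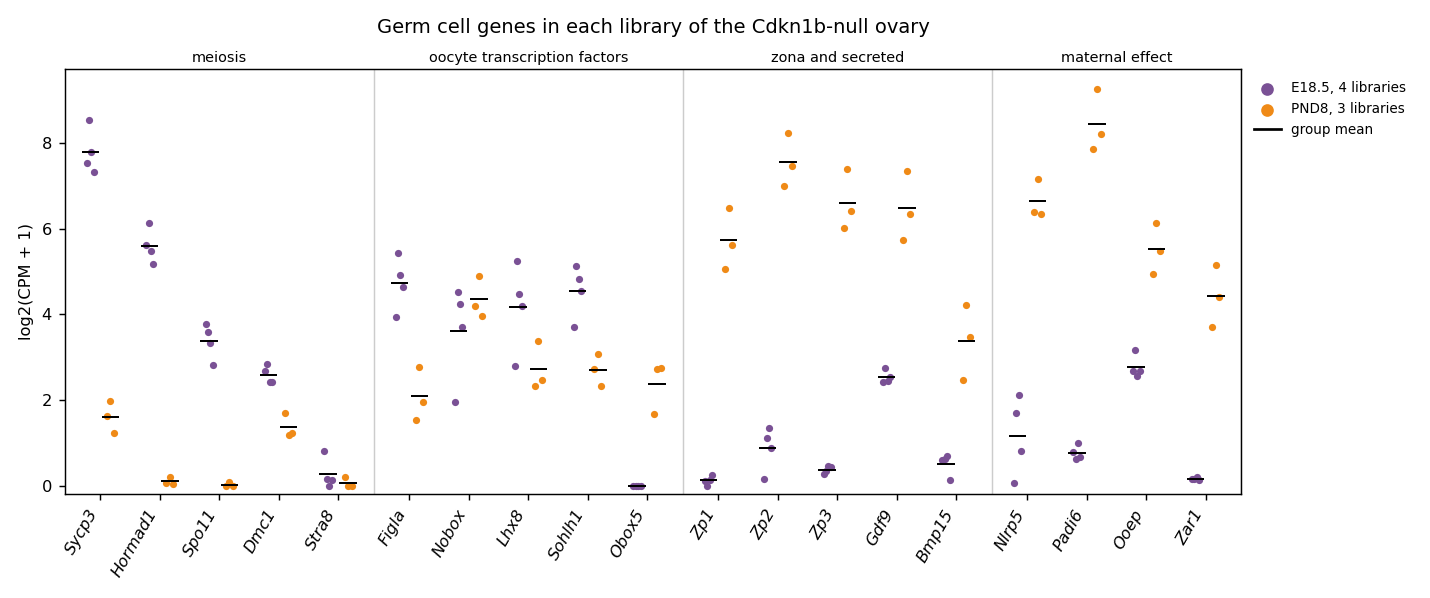
Germ cell genes in each Cdkn1b-null library, as log2(CPM + 1). Purple points are the 4 E18.5 libraries, orange points the 3 PND8 libraries and black bars the group means. The meiotic genes are lower at PND8, Dmc1 by less than the others, except Stra8, which is near 0 at both ages. The zona and maternal-effect genes are higher at PND8, and Nobox and Lhx8 overlap between the ages.

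Granulosa cell genes rose. Of 33 granulosa maturation genes tested, 24 were higher and 5 lower, with a median log2 fold change of 2.99, and 20 of the 33 made the fetal to postnatal step. Amh, the hormone of growing follicles that restrains recruitment of others, measured 0.525, 0.966, 1.06 and 1.19 CPM at E18.5 and 529, 613 and 589 CPM at PND8 (log2 fold change 9.29, SE 0.19, edgeR adjusted p 1.3e-09). Fshr, the receptor for follicle-stimulating hormone, went from 0, 0.107, 0.144 and 0.148 to 11.9, 12.0 and 22.0 CPM (log2 fold change 7.26, SE 0.49, edgeR adjusted p 5.1e-07). Foxl2, the transcription factor that maintains granulosa identity, was already at 32.9, 47.8, 38.2 and 37.96 CPM at E18.5 and reached 393, 387 and 409.9 CPM (log2 fold change 3.34, SE 0.12, edgeR adjusted p 9.2e-09). The groups were far apart for these 3 genes, and the PND8 libraries of Amh and Foxl2 lay close together. Inha, the inhibin alpha subunit, rose from 146, 239, 223 and 311 to 1794, 1788 and 1877 CPM (log2 fold change 2.99, SE 0.22, edgeR adjusted p 1.6e-06). Inhbb, the beta B subunit of activin B and inhibin B, went from 16.7, 20.4, 26.2 and 21.7 to 825, 353 and 334 CPM (log2 fold change 4.57, SE 0.38, edgeR adjusted p 1.9e-05), with PND8 replicate 1 more than 2-fold above the others. Gja1, the gap junction protein that couples granulosa cells, rose from 527, 573, 616 and 637 to 1018, 1031 and 1252 CPM (log2 fold change 0.90, SE 0.10, edgeR adjusted p 2.3e-05). Esr2 (oestrogen receptor beta) and Nr5a2 (LRH-1), nuclear receptors of granulosa cells, rose by 5.12 and 5.82 on the log2 scale. Amhr2, the receptor for Amh, fell from 366, 447, 382 and 472 to 306, 292 and 279 CPM (log2 fold change -0.51, SE 0.10, edgeR adjusted p 0.0011), a call that was lost with all 8 groups in 1 fit (adjusted p 0.12). Kitl, the ligand of Kit that granulosa cells present to the oocyte, fell: it measured 1005, 1136, 1176 and 1188 CPM at E18.5 and 472, 365 and 369 CPM at PND8 (log2 fold change -1.49, SE 0.12, edgeR adjusted p 1.3e-06). Fst, which binds activin, did not pass, at 219, 235, 189 and 162 and 179, 166 and 138 CPM (log2 fold change -0.32, adjusted p 0.054).

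Genes of fetal pregranulosa cells fell. Of 26 tested, 15 were lower and 4 higher, with a median of -0.93 (with the GC and length offset 17 lower, 2 higher and -1.18). Lgr5, a receptor for R-spondins that marks the cortical pregranulosa cells of the fetal ovary, measured 151, 265, 186 and 212 CPM at E18.5 and 4.90, 10.3 and 5.85 CPM at PND8 (log2 fold change -4.86, SE 0.34, edgeR adjusted p 3.8e-06). Gng13, a G protein subunit, fell from 85.1, 118, 98.0 and 124 to 1.41, 2.58 and 0.790 CPM (log2 fold change -6.05, SE 0.35, edgeR adjusted p 9.7e-07). Sp5 and Lef1, effectors of Wnt signalling, fell by 4.67 and 3.88 on the log2 scale, and Msx1, a homeobox gene, by 4.57. The groups did not overlap for any of these 5. Rspo1, the ligand that starts Wnt signalling in the fetal ovary, did not pass, at 14.8, 22.2, 18.6 and 19.4 and 18.9, 22.8 and 16.3 CPM. Wnt4, a Wnt ligand of ovarian somatic cells, rose from 32.9, 49.7, 35.9 and 50.03 to 90.0, 75.7 and 122 CPM (log2 fold change 1.19, SE 0.20, edgeR adjusted p 0.00054), but did not pass with the offset (log2 fold change 0.47, adjusted p 0.086). Runx1, a transcription factor of pregranulosa cells, rose by 0.52 on the log2 scale, but did not pass with the offset (-0.11, edgeR adjusted p 0.61). For Runx1 the call was lost without E18.5 replicate 1, 3 or 4 or PND8 replicate 1 or 3 (adjusted p 0.054 to 0.13), and without E18.5 replicates 1 and 3 together (log2 fold change 0.38, adjusted p 0.15).

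Hedgehog signalling, by which granulosa cells address the theca, rose from ligand to target. Of 15 genes tested, 12 were higher and 2 lower, with a median of 2.76 (1.57 with the GC and length offset), and 10 of the 15 made the fetal to postnatal step. Of the ligands, Dhh measured 1.57, 0.805, 1.49 and 1.39 CPM at E18.5 and 46.0, 38.01 and 40.3 CPM at PND8 (log2 fold change 4.96, SE 0.19, edgeR adjusted p 1.4e-08), and Ihh measured 0.0404, 0, 0.144 and 0.148 and 19.6, 18.8 and 47.3 CPM (log2 fold change 8.35, SE 0.59, edgeR adjusted p 1.7e-06), highest in PND8 replicate 4. Shh was at or under 0.0537 CPM in each library. The receptor Ptch1, which is itself induced by the pathway, went from 14.4, 18.8, 16.3 and 20.9 to 370.5, 526 and 392.5 CPM (log2 fold change 4.61, SE 0.17, edgeR adjusted p 1.5e-08). The target Gli1 measured 2.38, 0.322, 1.73 and 1.44 and 61.2, 81.3 and 57.6 CPM (log2 fold change 5.46, SE 0.40, edgeR adjusted p 4.8e-06), and Hhip, an induced inhibitor, measured 0.646, 0.591, 0.673 and 0.544 and 70.5, 90.6 and 92.9 CPM (log2 fold change 7.09, SE 0.15, edgeR adjusted p 1.3e-09). Neither gene overlapped between the ages. The co-receptors Gas1 and Boc fell, by 1.43 and 1.02 on the log2 scale, while the co-receptor Cdon rose by 3.32.

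Steroid genes were split. Of 26 tested, 13 were higher and 6 lower, with a median of 0.57. Hsd3b1, which makes progesterone, rose from 255, 344, 286 and 357 to 1599.9, 1334 and 2021 CPM (log2 fold change 2.41, SE 0.16, edgeR adjusted p 5.4e-07). Cyp11a1, which cleaves cholesterol as the first step, measured 9.65, 10.7, 8.27 and 10.1 CPM at E18.5 and 44.0, 35.2 and 159 CPM at PND8 (log2 fold change 3.03, SE 0.57, edgeR adjusted p 0.0027). Cyp17a1, the theca enzyme of androgen synthesis, measured 2.79, 3.01, 3.32 and 3.17 and 4.43, 9.26 and 64.4 CPM (log2 fold change 3.08, SE 0.93, edgeR adjusted p 0.022). PND8 replicate 4 was the highest library for these 2 genes. Without it the log2 fold change was 2.04 for Cyp11a1 (adjusted p 2.7e-06) and 1.16 for Cyp17a1 (adjusted p 0.0083). For Cyp17a1 the call was lost without E18.5 replicate 1, 2, 3 or 4 (adjusted p 0.050 to 0.074), and without E18.5 replicates 1 and 3 together (log2 fold change 3.07, adjusted p 0.17), and for Cyp11a1 the call was lost without both E18.5 replicates 1 and 3 (log2 fold change 2.93, adjusted p 0.058). Insl3, a theca hormone, went from 1 count in all to 0.604, 0.984 and 2.69 CPM (ratio 111, 95% counting interval 19.6 to 4420.2). Cyp19a1, the aromatase of granulosa cells, rose from 1.17, 3.60, 2.40 and 3.76 to 22.8, 14.8 and 16.3 CPM (log2 fold change 2.73, SE 0.35, edgeR adjusted p 7.0e-05). Star, the cholesterol transporter, and Lhcgr, the receptor for luteinising hormone, did not pass: Star was at 10.3, 9.77, 16.9 and 14.1 and 8.41, 13.4 and 15.0 CPM, and Lhcgr at 20.7, 22.9, 21.0 and 28.8 and 14.2, 10.2 and 28.0 CPM. Without PND8 replicate 4, the highest of its PND8 libraries, Lhcgr was called lower (log2 fold change -0.93, adjusted p 0.0023). The adrenal genes Cyp11b1, Cyp11b2 and Cyp21a1 were at or under 0.506 CPM in each library. Of 3 adrenal genes tested 2 were lower (1 with the offset), and the summed level of the list went from 7.02 to 9.21 CPM at E18.5 to 2.52 to 5.22 CPM at PND8.

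**Figure D4:**
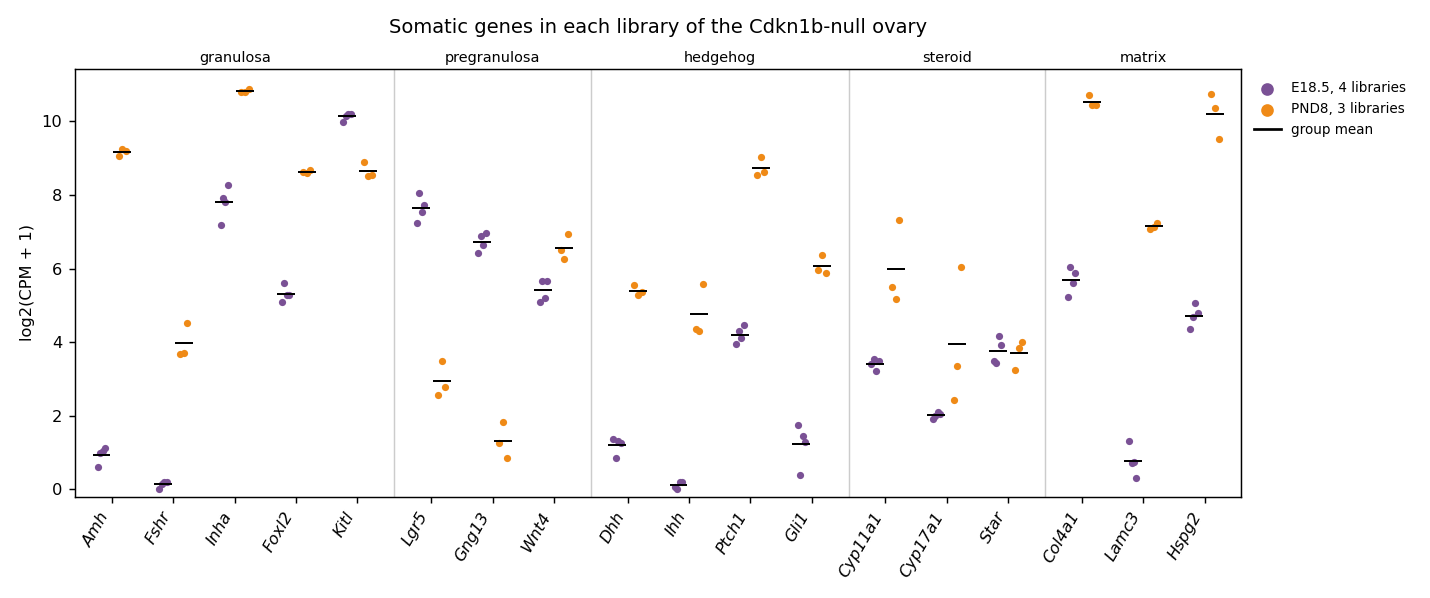
Somatic genes in each Cdkn1b-null library, as log2(CPM + 1). Purple points are the 4 E18.5 libraries, orange points the 3 PND8 libraries and black bars the group means. Amh, Fshr, the hedgehog genes and the matrix genes are higher at PND8, Kitl, Lgr5 and Gng13 are lower, and 1 PND8 library carries the high Cyp17a1 value.

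Of the growth factor pathways between oocyte and soma, Notch genes, which act in the enclosure of oocytes, gave 11 higher and 4 lower of 18 tested (median 0.95, with the offset 8 higher, 5 lower and 0.38). The receptor Notch2 rose from 27.2, 37.2, 28.6 and 38.4 to 328, 321 and 235 CPM (log2 fold change 3.17, SE 0.16, edgeR adjusted p 1.2e-07). The ligand Jag1, made by oocytes, rose from 9.97, 10.6, 5.87 and 12.1 to 29.4, 32.6 and 21.9 CPM (log2 fold change 1.54, SE 0.23, edgeR adjusted p 0.00018). The target Hey2 went from 1.29, 3.22, 1.35 and 1.73 to 31.7, 40.7 and 48.6 CPM (log2 fold change 4.43, SE 0.30, edgeR adjusted p 9.1e-07), whereas the target Hes1 fell from 214, 301, 249.8 and 171 to 39.3, 43.3 and 38.5 CPM (log2 fold change -2.54, SE 0.18, edgeR adjusted p 1.2e-06). Targets of the pathway thus moved in opposite directions.

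TGF-beta and BMP genes gave 17 higher and 10 lower of 32 tested (median 0.66, with the offset 12 higher, 10 lower and -0.02). The receptors Bmpr1b and Bmpr2 rose, Bmpr1b from 15.5, 15.4, 17.7 and 13.7 to 86.6, 107 and 113 CPM (log2 fold change 2.71, SE 0.12, edgeR adjusted p 2.5e-08). The ligand Tgfb1 went from 0.202, 0.107, 0.385 and 0.297 to 27.5, 22.1 and 19.9 CPM (log2 fold change 6.52, SE 0.29, edgeR adjusted p 2.7e-08). The BMP targets Id1, Id2 and Id3 fell, by 2.76, 2.78 and 2.53 on the log2 scale. Bmp4, a ligand of the theca and stroma, overlapped between the ages in the null, at 10.8, 7.19, 6.54 and 5.99 and 7.90, 9.06 and 7.75 CPM.

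Genes of dormancy and PI3K signalling, which sets the activation of primordial follicles, gave 16 higher and 6 lower of 25 (median 1.31, with the offset 13 higher, 7 lower and 0.40). Tsc1, which restrains mTOR, rose from 13.3, 12.2, 12.7 and 12.0 to 67.7, 71.3 and 66.3 CPM (log2 fold change 2.45, SE 0.08, edgeR adjusted p 7.8e-09), its partner Tsc2 rose by 1.53 on the log2 scale, and Akt1, the kinase downstream of PI3K, by 2.28. Foxo1, a granulosa FOXO factor, showed the largest rise of the list, from 11.7, 19.1, 11.6 and 14.1 to 247, 269 and 352.4 CPM (log2 fold change 4.36, SE 0.20, edgeR adjusted p 9.2e-08). Brakes and drivers of the pathway were both higher, and 17 of the 25 genes made the fetal to postnatal step.

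IGF genes gave 8 higher and 2 lower of 12 (median 1.15, with the offset 7 higher, 3 lower and 0.50). The ligand Igf1 did not pass, at 225, 126, 145 and 161 and 243, 166 and 158 CPM. Igfbp5, a binding protein of granulosa cells, rose from 588, 516, 727 and 652 to 1461, 2134 and 1716 CPM (log2 fold change 1.51, SE 0.15, edgeR adjusted p 7.5e-06), and Insr, the insulin receptor, rose by 3.20 on the log2 scale. Fetal growth genes fell: 13 of 22 were lower and 6 higher, with a median of -1.04. Igf2, the fetal growth factor, fell from 449, 444, 391 and 399 to 65.9, 55.5 and 25.8 CPM (log2 fold change -3.10, SE 0.31, edgeR adjusted p 3.9e-05), and H19, its neighbour in the imprinted cluster, fell by 2.89 on the log2 scale. Igf2bp1, an RNA-binding protein of fetal tissues, fell from 20.5, 11.0, 18.2 and 12.0 to 0.0895, 0.0868 and 0.285 CPM (log2 fold change -6.67, SE 0.45, edgeR adjusted p 4.7e-07), and Lin28b, which blocks let-7 in fetal cells, from 1.21, 3.27, 3.61 and 4.80 to 0.313, 0.347 and 0.190 CPM (log2 fold change -3.47, SE 0.52, edgeR adjusted p 0.00015). Hmga2, a chromatin protein of the same fetal set, rose from 5.69, 5.21, 8.12 and 7.67 to 29.2, 32.3 and 23.6 CPM (log2 fold change 2.09, SE 0.18, edgeR adjusted p 2.9e-06).

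The basal lamina and matrix rose. Of 35 genes tested, 31 were higher and 2 lower, with a median of 2.19; with the GC and length offset the counts were 24 and 3 and the median 1.12, and 21 of the 35 made the fetal to postnatal step. Col4a1, a chain of the collagen IV of basal laminae, went from 36.4, 64.8, 47.7 and 58.0 to 1696, 1389.7 and 1384 CPM (log2 fold change 4.85, SE 0.20, edgeR adjusted p 3.4e-08). Lamc3, a laminin gamma chain, went from 1.49, 0.644, 0.673 and 0.247 to 134, 140.3 and 151 CPM (log2 fold change 7.46, SE 0.30, edgeR adjusted p 5.6e-08), and Lama1, a laminin alpha chain of the follicle, from 45.4, 61.7, 63.4 and 65.0 to 759, 673 and 528 CPM (log2 fold change 3.47, SE 0.16, edgeR adjusted p 4.9e-08). Hspg2, the heparan sulphate proteoglycan perlecan, rose by 5.60 on the log2 scale. The fibrillar collagen gene Col1a1 rose from 1438, 904, 1296 and 1295 to 3670.5, 2268 and 1691 CPM (log2 fold change 1.04, SE 0.26, edgeR adjusted p 0.0055) and Eln, elastin, rose by 0.73. With the offset neither Col1a1 nor Eln passed (-0.39 and -0.06, edgeR adjusted p 0.17 and 0.70). The 2 that fell, Lox and Loxl1, encode the enzymes that cross-link collagen and elastin (-0.81 and -1.56).

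Cell cycle genes set the null ovary apart from WT. Of 40 S phase genes, 12 were higher and 21 lower in the null, with a median of -0.22, while in WT 24 were higher and 7 lower, with a median of 0.70. Of 50 genes of G2 and M phase, 16 were higher and 14 lower in the null, with a median of -0.02, while in WT 33 were higher and 3 lower, with a median of 0.88. The test of the difference itself, age by genotype over 15 libraries, called 156 of 18687 genes (0.835%), 115 with a lower log2 fold change in the null (0.615%) and 41 with a higher one (0.219%). This count moved with single libraries: it was 274 and 402 without WT E18.5 replicate 1 or 2, 49 without null PND8 replicate 3, and 78 to 98 without null E18.5 replicate 3 or 4, null PND8 replicate 1 or 4, WT E18.5 replicate 4 or WT PND8 replicate 2, 3 or 4. It called 17 of the 40 S phase genes and 20 of the 50 M phase genes, 37 of 90 in all, each with the lower log2 fold change in the null. Without E18.5 null replicates 1 and 3 these counts were 7 and 10, and without null PND8 replicate 3 they were 6 and 9.

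The 2 genotypes stood apart at E18.5. Averaged over the 40 S phase genes as log2(CPM + 1), WT libraries stood at 5.38 to 5.81 at E18.5 (mean 5.50 ± 0.21, SD, n = 4) and at 5.89 to 6.17 at PND8 (6.06 ± 0.12, n = 4). Null libraries stood at 6.28 to 6.59 at E18.5 (6.42 ± 0.13, n = 4) and at 6.16 to 6.24 at PND8 (6.20 ± 0.04, n = 3). The M phase mean ran from 5.43 ± 0.18 to 6.37 ± 0.11 in WT and from 6.33 ± 0.17 to 6.55 ± 0.08 in the null. At E18.5 the null libraries lay above all WT libraries in both lists, and at PND8 the ranges of the genotypes overlapped in both.

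**Figure D5:**
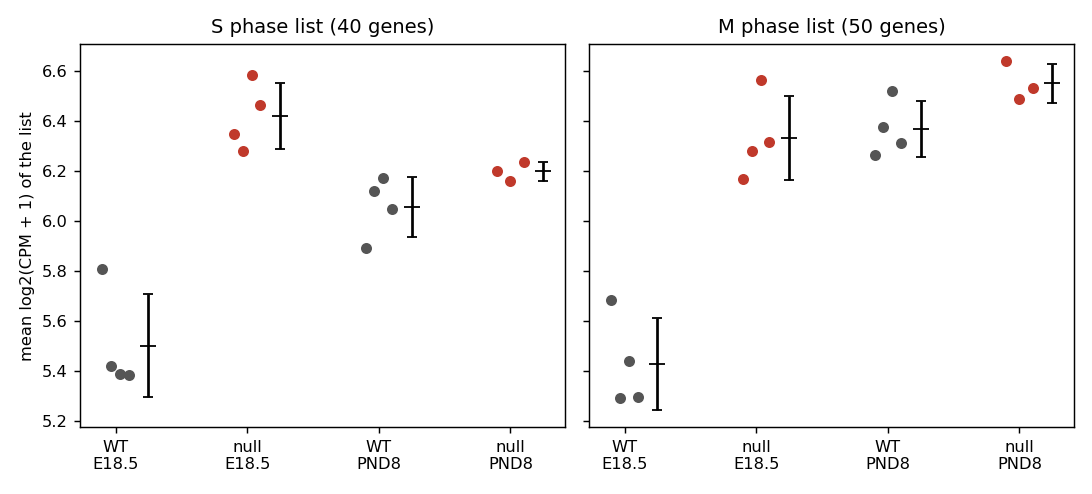
Mean log2(CPM + 1) of the 40 S phase genes (left) and 50 M phase genes (right) in each E18.5 and PND8 library, grey for WT and red for Cdkn1b-null, with group mean and SD beside the points. Null libraries at E18.5 stand above all WT libraries of that age. To PND8 both means rise in WT, while in the null the S phase mean falls and the M phase mean rises less. The ages of the null overlap in the M phase list and not in the S phase list.

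Of single genes, Cdc20, Racgap1, Chaf1b and Cdt1 were called in the age by genotype test, and Mki67 was not. Cdc20, which activates the anaphase-promoting complex, overlapped between the ages in the null, at 115, 130.1, 136 and 131 and 127, 111 and 124 CPM, while it rose in WT (log2 fold change 1.44), and the difference was -1.52 (SE 0.17, edgeR adjusted p 0.0011). Racgap1, needed for cytokinesis, rose less in the null (0.49) than in WT (1.78; difference -1.29, adjusted p 0.008). Chaf1b, a subunit of the histone chaperone of replication, had 63.0, 60.1, 67.4 and 74.7 and 66.5, 70.4 and 60.7 CPM in the null, with a difference of -1.22 from WT (adjusted p 0.0091). Cdt1, which licenses replication origins, differed by -1.31 (adjusted p 0.01). Mki67, a marker of cycling cells, rose in both genotypes: it went in the null from 93.2, 125, 175 and 114 to 890.5, 774 and 642 CPM (log2 fold change 2.60, SE 0.21, edgeR adjusted p 3.6e-06) and by 2.98 in WT, and the difference did not pass (adjusted p 0.61). Slbp and Ccne2, which act at entry into S phase, fell by 2.24 and 2.31 in the null.

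Other cell cycle regulators included the relatives of p27. Cdkn1c (p57) fell from 875, 483, 385 and 181 to 21.9, 18.0 and 18.7 CPM (log2 fold change -4.62, SE 0.60, edgeR adjusted p 0.00046), with replicate 1 the highest and replicate 4 the lowest at E18.5. Cdkn1a (p21) fell from 31.7, 23.2, 29.8 and 27.2 to 3.78, 2.98 and 3.16 CPM (log2 fold change -3.08, SE 0.16, edgeR adjusted p 7.6e-08). Cdkn2c (p18), of the INK4 family, rose from 9.61, 11.1, 9.90 and 5.30 to 59.9, 45.3 and 46.7 CPM (log2 fold change 2.497, SE 0.22, edgeR adjusted p 5.4e-06). Of the D cyclins, Ccnd3 fell by 2.52 on the log2 scale. Ccnd2, the D cyclin of granulosa cells, measured 475, 462, 489 and 558 and 649, 578 and 532 CPM (log2 fold change 0.24, SE 0.10, edgeR adjusted p 0.047) and overlapped between the ages. With the offset Ccnd2 was called lower instead (log2 fold change -0.54, edgeR adjusted p 0.00059). For Ccnd2 the call was lost without E18.5 replicate 1, 2 or 3 or PND8 replicate 1 or 3 (adjusted p 0.059 to 0.14), and without E18.5 replicates 1 and 3 together (log2 fold change 0.20, adjusted p 0.21). Of the 30 control genes, 14 were higher and 9 lower (median 0.21, with the offset 13 higher, 11 lower and 0.02). Besides Cdkn1b, the age by genotype test called Cdc25c, a phosphatase that activates Cdk1 (difference -1.36, adjusted p 0.012).

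Outside the cell cycle lists the same test called Tnni3, a troponin subunit of cardiac muscle, which rose by 1.16 in the null and 2.88 in WT (difference -1.72, adjusted p 0.0014). Bmp4 rose in WT by 1.86 and differed by -1.75 (adjusted p 0.012). Sqle, an enzyme of cholesterol synthesis, fell by 0.88 in the null and measured -0.01 in WT (difference -0.87, adjusted p 0.043). Ythdc2 had the opposite sign, with a larger rise in the null (difference 0.85, adjusted p 0.041). The calls of Sqle and Ythdc2 were lost with the GC and length offset (adjusted p 0.054 and 0.085), with all 8 groups in 1 fit (0.47 and 0.28) and without E18.5 null replicates 1 and 3 together (0.16 and 0.21). Both were also lost without any 1 null library except E18.5 replicate 2, and without WT E18.5 replicate 4 or WT PND8 replicate 2, 3 or 4 (adjusted p 0.066 to 0.13 for Sqle and 0.069 to 0.11 for Ythdc2), and Ythdc2 without WT PND8 replicate 1 as well (adjusted p 0.070). That of Bmp4 was lost with all 8 groups in 1 fit (adjusted p 0.12). For the oocyte and granulosa genes named above, the difference between the genotypes did not pass where it is given here, which does not show that they changed alike. Zp3 gave a difference of 0.74 (SE 1.62), Gdf9 of 1.48 (SE 0.63), Amh of -0.27 (SE 0.32) and Lgr5 of -1.12 (SE 0.43), with adjusted p 0.88, 0.32, 0.75 and 0.28.

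The death genes of the oocyte reserve gave 10 higher and 5 lower of 18. Trp63, whose TAp63 form eliminates damaged oocytes, measured 1.09, 5.85, 2.88 and 2.92 CPM at E18.5 and 7.68, 9.64 and 5.98 CPM at PND8 (log2 fold change 1.29, SE 0.45, edgeR adjusted p 0.025). For Trp63 the call was lost without E18.5 replicate 3 or 4 or PND8 replicate 1 or 3 (adjusted p 0.052 to 0.080), and without E18.5 replicates 1 and 3 together (log2 fold change 0.82, adjusted p 0.070). Trp63 also did not pass with the GC and length offset (log2 fold change 0.98, edgeR adjusted p 0.072). The BH3-only gene Pmaip1 (Noxa) fell by 3.45 on the log2 scale and Bcl2l11 (Bim) rose by 0.93. Bax, an executor of cell death, fell from 85.5, 83.0, 87.6 and 93.4 to 36.2, 36.3 and 37.9 CPM (log2 fold change -1.25, SE 0.07, edgeR adjusted p 1.7e-07), and Mcl1, a survival factor of oocytes, rose from 35.2, 32.7, 38.9 and 39.1 to 155, 129.6 and 138 CPM (log2 fold change 1.95, SE 0.09, edgeR adjusted p 4.6e-08).

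Markers of other cells in the ovary were followed as well. Stromal genes were split, 13 higher and 7 lower of 25 (median 0.42). Pdgfra rose from 178, 131, 111 and 132 to 338, 311 and 326 CPM (log2 fold change 1.24, SE 0.14, edgeR adjusted p 2.2e-05) and Tcf21 by 2.09, while Dcn, decorin, was highest in E18.5 replicate 1, at 880.0, 339, 383 and 430.0 CPM against 339, 213 and 216 CPM (log2 fold change -0.99, SE 0.38, edgeR adjusted p 0.046). With the GC and length offset neither Pdgfra nor Dcn passed (log2 fold change 0.29 and -0.29, edgeR adjusted p 0.14 and 0.52). For Dcn the call was lost without E18.5 replicate 4 or PND8 replicate 1, 3 or 4 (adjusted p 0.054 to 0.15), and without E18.5 replicates 1 and 3 together (log2 fold change -0.59, adjusted p 0.058). Surface epithelium genes fell, 11 of 17 lower and 2 higher (median -1.43, with the offset 11 lower, 1 higher and -1.43), while their summed level, which holds the rise of Igfbp5 given above, went from 1649 to 2004 CPM at E18.5 to 1699 to 2647 CPM at PND8. Upk3b ran 184, 188, 309.6 and 238 and 10.2, 82.9 and 52.0 CPM (log2 fold change -2.25, SE 0.71, edgeR adjusted p 0.027), with PND8 replicate 1 the lowest library, and the call was lost without E18.5 replicate 1 or 3 or PND8 replicate 4 (adjusted p 0.051 to 0.079), and without E18.5 replicates 1 and 3 together (log2 fold change -2.15, adjusted p 0.12). Krt8 ran 249, 297, 241 and 267 and 80.3, 97.7 and 71.9 CPM (log2 fold change -1.66, SE 0.12, edgeR adjusted p 7.1e-07). Endothelial genes gave 3 higher and 7 lower of 20 (median -0.07, with the offset 3, 12 and -0.69). Their log2 fold changes ran from -2.44 to 5.67, the highest being that of Sox18. Pecam1 overlapped, at 33.6, 51.1, 43.6 and 48.0 and 60.4, 32.0 and 44.5 CPM. Kdr was among those called lower, a call lost with the replicate block (-0.39, edgeR adjusted p 0.050) and with all 8 groups in 1 fit (-0.42, edgeR adjusted p 0.23). Pericyte and smooth muscle genes gave 9 higher and 3 lower of 15 (median 1.32, with the offset 8 higher, 5 lower and 1.04), with Acta2 higher by 1.32 and Rgs5 lower by 1.24.

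Immune genes fell, 19 of 22 lower and 2 higher (median -2.08), and their summed level went from 965 to 1378 CPM at E18.5 to 110 to 159 CPM at PND8. This sum holds Cpa3 and Kit, whose levels are given above, and Mpo. Cpa3 was its largest single member in each E18.5 library, while at PND8 it lay below Kit in each library. The sum is therefore not a measure of macrophage RNA alone. C1qa, of macrophages, ran 14.7, 8.32, 5.34 and 7.18 and 4.09, 3.33 and 2.15 CPM (log2 fold change -1.47, SE 0.37, edgeR adjusted p 0.0043). Mpo, an enzyme of myeloid cells, was high in E18.5 replicates 3 and 4 alone, at 0, 0.591, 371 and 356 CPM, against 1 count in all at PND8 (edgeR adjusted p 0.043), and the groups overlapped. For Mpo the call was lost without PND8 replicate 1, 3 or 4 (adjusted p 0.12 to 0.18), and without E18.5 replicates 1 and 3 together (adjusted p 0.057). The defining markers of T, B and natural killer cells (Cd3e, Cd3g, Ms4a1 and Ncr1) were too low to test, at or under 0.885 CPM. Of 11 erythroid genes 5 were lower (median -4.03). That count was 2 without E18.5 replicate 1, 3 without PND8 replicate 1, 1 without PND8 replicate 3 or 4, 3 with the offset and 10 with DESeq2. Without E18.5 replicates 1 and 3, of 12 tested, 5 were lower and 1 higher (median -1.27). Hbb-bs ran 7734, 567, 4012 and 489 CPM at E18.5 and 724, 108 and 73.3 CPM at PND8, which did not pass (log2 fold change -3.41, SE 1.55, edgeR adjusted p 0.092). Of 11 mesonephros and oviduct genes 5 were lower and 1 higher (median -2.23, and -1.47 without E18.5 replicates 1 and 3), and their summed level went from 94.7 to 158 CPM at E18.5 to 17.7 to 27.1 CPM at PND8. Pax8 ran 23.0, 5.05, 15.1 and 11.8 and 0.783, 1.303 and 0.569 CPM (log2 fold change -3.95, SE 0.55, edgeR adjusted p 0.00016), highest in E18.5 replicate 1. Nerve, fat and muscle genes gave 3 higher and 6 lower of 11, and the fat and muscle genes Adipoq, Cfd, Lep, Myh3, Acta1 and Ckm were too low to test. The mitochondrially encoded genes moved in both directions, 4 higher and 2 lower of 13 (median 0.36, with the offset 8 higher, 2 lower and 2.53). The 4 higher became 2 without E18.5 replicates 1 and 3 together, 2 without E18.5 replicate 3 or 4 or PND8 replicate 3, and 1 without PND8 replicate 1. In this list mt-Atp6 fell by 4.84 and mt-Nd6 rose by 2.31. For mt-Nd6 the call was lost without PND8 replicate 1 (edgeR adjusted p 0.057) and with the replicate block (0.085). For mt-Atp6 it was lost with the replicate block (edgeR adjusted p 0.061) and with the offset and the block together (0.22). mt-Nd6 lies on the opposite strand to most mitochondrial genes, and whether counting used strand is not given in the sources used here. What part these cells and genes had in the lists above was not tested.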

How the data were processed

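Bulk RNA-seq was measured in 29 mouse ovary samples, of which the 7 Cdkn1b-null libraries of E18.5 and PND8 were compared, with 8 WT libraries of the same ages for the test of age by genotype. The authors deposited 1 table of RSEM expected counts per Ensembl gene for all samples, per the file headers; the headers name a folder of 2 combined projects, and which libraries belong to which is not given in the sources used here. The submitters' processing notes name Trim Galore, FastQC 0.11.5, STAR 2.5.2 and RSEM 1.3.0. The genome build and annotation release are not given in the sources used here. Of 51912 gene IDs, 51633 were matched to a symbol, and 19987 had no count in the 7 libraries.

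The expected counts (31.7% of values above 0 were not whole) were rounded to whole numbers. Library totals ran from 17630619 to 22769235 counts at E18.5 and from 34518180 to 48213126 at PND8. Genes passing filterByExpr (minimum count 10, minimum total 15) were tested with edgeR 4.0.16 in R 4.3.3 (TMM factors, robust quasi-likelihood fit, Benjamini-Hochberg adjusted p of 0.05), and the fit was checked on simulated counts. A prior count of 2 entered the list means of log2 CPM per library. CPM values were scaled by TMM within the libraries of each comparison. Alternatives were DESeq2 1.42.0, limma 3.58.1 (voom with sample weights), RLE, upper quartile or no scaling factors, no filter, thinned counts, all 8 groups in 1 fit, a replicate block and leaving out each replicate. An offset for each library's trend with GC content and length of the longest transcript (natural splines, 4 degrees of freedom each), the same with the block, and leaving out E18.5 replicates 1 and 3 were chosen after seeing the data. Intervals and floors reflect counting alone, because no molecular identifiers mark PCR copies of a molecule. Replicates differed from each other by more than sampling noise, and each was counted as 1 sample.

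The 29 gene lists (724 symbols, of which 716 were matched, to 707 distinct genes) and the genes described were chosen with earlier results of these data known. Genes named are Cdkn1b, 92 anchors of the lists, up to 3 further members per list with the smallest p, the 8 largest changes each way (at least 10 CPM, no overlap), up to 6 genes with the smallest interaction p and up to 2 per list. Members that went against most of their list were named to account for them: Brca2, Boc, Gas1, Lox, Loxl1, Hes1, Pou5f1, Tdrd5 and Tdrd7. Named after their values were seen were Amhr2, Cyp19a1, Esr2, Foxo1, Gng13, Hspg2, Id1, Id2, Ihh, Insl3, Lamc3, Lef1, Midn, Mlh3, Mpo, Nr5a2, Obox1, Obox2, Oosp1, Pmaip1, Spo11, Sycp1, Tdrd9, Tgfb1, mt-Atp8, mt-Nd6, Nlrp2, Nlrp4a, Nlrp9b, Ppp6r1 and Ubb. Some genes that the rule names are not reported here. Upstream sequences are RefSeq's, on GRCm38.p6, and gene positions, GC content and length are from GENCODE M21.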

Additional observations from a re-analysis of the deposited data

Results flagged for a closer look

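In the 263 groups of 4 E18.5 null libraries examined (named genes and list means), 12 had a highest or lowest library set apart from the other 3, where chance gives about 5% of groups. The 12 do not exceed that share. The ratio of the gap to the group's range (past Dixon's critical value for 4 libraries) was 0.91 for the endothelial list mean (replicate 1 at 4.08, the others at 4.41 to 4.44 on the log2 scale). It was 0.888 for Col4a2 (replicate 1 at 87.2 CPM), 0.834 for Lama1 (replicate 1 at 45.4 CPM) and 0.832 for Dcn (replicate 1 at 880.0 CPM). For Klf1, a transcription factor of red cells, it was 0.856 (replicate 3 at 65.4 CPM), for Ogn, a stromal proteoglycan, 0.894 (replicate 3 at 18.0 CPM), and for Cdk1, the kinase of mitosis, 0.876 (replicate 3 at 158 CPM, the others at 136 to 139). It was 0.849 for Akt1 (replicate 4 at 61.9 CPM) and 0.838 for Hoxa10 (replicate 2 at 1.07 CPM). It was 1 for Astl, Fbxw24 and Insl3, each with 1 count in 1 E18.5 library.

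The change from E18.5 to PND8 differed between the null and WT for 11 genes named by the rule, with the difference of log2 fold changes (null minus WT) past an edgeR adjusted p of 0.05. Lower in the null were Cdc20 (-1.52), Racgap1 (-1.29), Chaf1b (-1.22), Cdt1 (-1.31) and Cdc25c (-1.36) of the cell cycle, Tnni3 (-1.72), Sqle (-0.87) and Bmp4 (-1.75). Higher in the null were Cdkn1b (2.01), Ythdc2 (0.85) and the predicted gene Gm27624 (7.78, with a log2 fold change of -2.59 in the null and -10.36 in WT).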

How the results depend on the processing

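The count of genes changed in the null (13351) ran from 11952 (GC and length offset with the replicate block) to 14599 (no filter on low counts) over the alternatives that kept all 7 libraries, from 12671 to 13177 without 1 null replicate, and was 13080 without E18.5 replicates 1 and 3. The offset for GC content and length, its form with the block and the removal of E18.5 replicates 1 and 3 were chosen after seeing the data. Replicate numbers did not pair the samples (correlations of same-numbered deviations 0.025, 0.027 and 0.002). With the replicate block the null count was 12744, the WT count 12510 and the age by genotype count 94. The age by genotype count (156, with 73 of at least 2-fold) was the least stable: it was 580 (207 of at least 2-fold) with DESeq2, 449 (165) with limma-voom, 67 (46) with all 8 groups in 1 fit and 54 (38) without E18.5 null replicates 1 and 3. Leaving out 1 library moved it between 49 and 402, and that of at least 2-fold between 39 and 143. Cell cycle genes called in that test were 6 to 28 of 40 (S phase) and 9 to 30 of 50 (M phase) without 1 library, and 11 and 17 with the block. With a prior count of 0.5, the difference between the ages in mean log2 CPM was 5.29 for the zona list (4.57 with 2), 5.04 for the maternal-effect list (4.30) and -3.93 for the meiotic list (-3.60). The GC and length offset turned the direction of Ccnd2 (-0.54), Col1a1 (-0.39), Cdk1 (-0.24), Runx1 (-0.11), Eln (-0.0589), Brca2 (-0.16) and Foxo3 (-0.26). With the offset and the replicate block these were -0.59, -0.55, -0.26, -0.0623, -0.0676, -0.0641 and -0.24, and Fst turned to 0.33. With the offset alone Ccnd2, Cdk1 and Foxo3 were called lower (edgeR adjusted p 0.00059, 0.013 and 0.025). Col1a1, Runx1, Eln and Brca2 did not pass with it. The cause of these moves was not tested. Of 234 named genes tested in the null, 216 were called, and 179 of these stayed called in the same direction under each alternative run. Depth limits the genes near the floor at E18.5, where 3 counts stood for 0.144 CPM, so that ratios of genes with 1 to 3 counts carry wide intervals.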
